A study of Mus musculus with 8 samples.

Results

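Matrix Gla protein (Mgp), the Gla-containing ligands Gas6 and Pros1, and the enzymes of the vitamin K cycle Ggcx, Vkorc1 and Vkorc1l1 were examined in long bone of Hyp and wild-type (WT) mice. The 6 genes were chosen by name, with earlier results of these data known. All probe sets annotated to exactly 1 of them were taken, which gave 9 probe sets of the 45037 tested. Total RNA was taken from tibia and femur of males at 12 days of age and hybridised to 8 arrays, 4 for Hyp and 4 for WT mice. Hyp mice carried a deletion of the 3′ part of Phex on the C57BL/6 background, and the strain field of the WT arrays reads wild type with no background named. Each RNA was a pool of 2 bone samples of a genotype, so an array averages over them. The labels do not give the number of animals, and the p-values measure only the spread between these RNA samples. Whole bone was used, in which fewer cells of a type and less RNA per cell cannot be told apart.

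Gla proteins carry glutamate residues that are carboxylated after translation, which lets them bind calcium. The carboxylase encoded by Ggcx does this with reduced vitamin K as its cofactor, and the epoxide that results is reduced again by the reductase encoded by Vkorc1 and by its paralogue Vkorc1l1. Mgp is a secreted inhibitor of calcification made by chondrocytes and vascular smooth muscle cells, among others, and mice without it calcify their arteries and cartilage. Gas6 and Pros1 (protein S, also a cofactor of anticoagulation) are ligands of the receptor tyrosine kinases Tyro3, Axl and Mertk.

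In Hyp bone the transcript of Mgp was higher, and those of Ggcx and Vkorc1 were lower. Mgp was 2.2-fold higher in Hyp bone, while Vkorc1 was 42.0% lower and Ggcx was 43.2% and 38.1% lower at its 2 probe sets. Gas6 rose at 1 of 2 probe sets, Vkorc1l1 fell at 1 of 2, and the probe set of Pros1 did not pass the test. Of the 9 probe sets 2 were higher, 4 lower and 3 not past the threshold (limma, Benjamini-Hochberg adjusted p under 0.05), where 7.13% of all probe sets passed, 3.22% higher and 3.91% lower. In 6 of the 9 no Hyp array overlapped the WT arrays, which held for 15.5% of all probe sets. Since the genes were chosen with earlier results known, these shares give a scale and not independent support. Values are on the log2 scale and were centred on a median of 0 for each probe set over the 8 arrays, so they give differences between arrays and no level, and genes cannot be ranked by abundance.

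**Figure D1:**
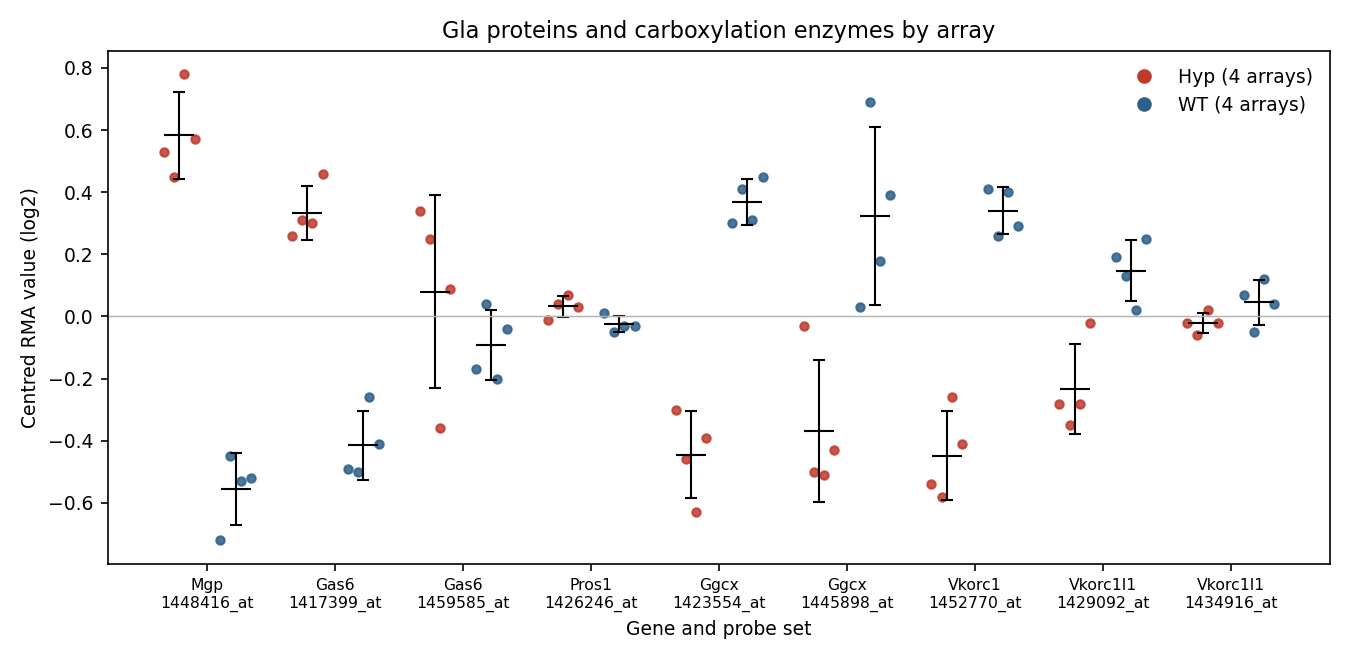
Centred RMA values (log2, vertical axis) of the 9 probe sets of the 6 genes, with a point for each array, 4 Hyp arrays left of 4 WT arrays for each probe set, and black bars for the mean and SD. For Mgp the Hyp points run from 0.45 to 0.78 and the WT points from -0.72 to -0.45, and for Vkorc1 the Hyp points run from -0.58 to -0.26 and the WT points from 0.26 to 0.41.

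The substrates were taken first. Mgp (probe set 1448416_at) had values of 0.53, 0.45, 0.78 and 0.57 in Hyp replicates 1 to 4, against -0.72, -0.45, -0.53 and -0.52 in WT replicates 1 to 4. All Hyp arrays lay above all WT arrays, with 0.90 between the nearest arrays of the 2 genotypes. The difference was 1.14 ± 0.09 (SE, n = 4 per group; limma adjusted p = 8.88e-05), the 34th largest increase among all probe sets.

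Gas6 rose at probe set 1417399_at. It had 0.26, 0.31, 0.30 and 0.46 in Hyp replicates 1 to 4, against -0.49, -0.50, -0.26 and -0.41 in WT replicates 1 to 4. The groups were apart by 0.52, and the difference was 0.75 ± 0.07 (SE; limma adjusted p = 0.000317), or 1.68-fold. Its other probe set, 1459585_at, had 0.34, 0.25, -0.36 and 0.09 in Hyp and -0.17, 0.04, -0.20 and -0.04 in WT. Here the groups overlapped, with Hyp replicate 3 below every WT array and Hyp replicates 1, 2 and 4 above every WT array. The difference of 0.17 ± 0.13 (SE) did not pass (limma adjusted p = 0.504), with a 95% interval from -0.13 to 0.47 that lies below the difference at the first probe set. The mean of both probe sets was 0.46 ± 0.07 higher in Hyp (SE; limma adjusted p = 0.00274).

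Gas6 has a RefSeq start for which an upstream window was at hand, shown here because its transcript moved opposite to the enzymes below. The 200 bases run from 250 to 51 bases before the start, 5′ to 3′ on the gene's strand, with capitals for matches, on either strand, to the GC box (spelled GGGCGG), the box spelled CCAAT and the TATA box (spelled TATAAA). These motifs share no letters in the windows shown.
Gas6 promoter, GRCm38.p6, chr8:13494586-13494785, minus strand: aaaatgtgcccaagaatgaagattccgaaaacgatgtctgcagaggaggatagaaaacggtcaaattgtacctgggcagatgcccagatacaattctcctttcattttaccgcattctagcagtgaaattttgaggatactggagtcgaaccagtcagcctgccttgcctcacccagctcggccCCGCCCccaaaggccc
It held 1 GC box on the opposite strand and neither of the other motifs.

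Pros1 showed no difference past the threshold. Its probe set 1426246_at had -0.01, 0.04, 0.07 and 0.03 in Hyp replicates 1 to 4, against 0.01, -0.05, -0.03 and -0.03 in WT replicates 1 to 4, and the groups overlapped. The difference was 0.06 ± 0.05 (SE; limma adjusted p = 0.578), with a 95% interval from -0.06 to 0.17. Without levels, a transcript that hybridised weakly cannot be told from a stable one.

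The carboxylase Ggcx fell at both of its probe sets. Probe set 1423554_at had -0.30, -0.46, -0.63 and -0.39 in Hyp replicates 1 to 4, against 0.30, 0.41, 0.31 and 0.45 in WT replicates 1 to 4. The 2 genotypes were apart by 0.61, and Ggcx fell by 0.82 ± 0.08 (SE; limma adjusted p = 0.00027). Probe set 1445898_at had -0.03, -0.50, -0.51 and -0.43 in Hyp, against 0.03, 0.69, 0.18 and 0.39 in WT. The groups were apart by only 0.07, since Hyp replicate 1 and WT replicate 1 lay close together, and the fall was by 0.69 ± 0.15 (SE; limma adjusted p = 0.0193). This second probe set missed the threshold without Hyp replicate 2, 3 or 4 or WT replicate 4 (limma adjusted p from 0.0541 to 0.0619), and without both Hyp replicate 2 and WT replicate 3 (0.0528).

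The reductase Vkorc1 fell to a like extent. Its probe set 1452770_at had -0.54, -0.58, -0.26 and -0.41 in Hyp replicates 1 to 4, against 0.41, 0.26, 0.40 and 0.29 in WT replicates 1 to 4. All Hyp arrays were below all WT arrays, by at least 0.52. Vkorc1 fell by 0.79 ± 0.08 (SE; limma adjusted p = 0.000352), with a 95% interval from -0.96 to -0.61 that overlaps that of the first Ggcx probe set (-0.99 to -0.64).

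The paralogue Vkorc1l1 fell at 1 probe set only, by a smaller difference in values than Vkorc1. These genes were not compared with each other by a test. Probe set 1429092_at had -0.28, -0.35, -0.28 and -0.02 in Hyp replicates 1 to 4, against 0.19, 0.13, 0.02 and 0.25 in WT replicates 1 to 4. The nearest arrays, Hyp replicate 4 and WT replicate 3, were 0.04 apart, and the fall was by 0.38 ± 0.08 (SE; limma adjusted p = 0.022). The other, 1434916_at, had -0.02, -0.06, 0.02 and -0.02 in Hyp and 0.07, -0.05, 0.12 and 0.04 in WT, and the groups overlapped. Its difference was -0.07 ± 0.06 (SE; limma adjusted p = 0.566; 95% interval from -0.20 to 0.07). As for Pros1, weak hybridisation at this probe set cannot be told from a stable transcript. The call at the first probe set was lost without Hyp replicate 1, 2 or 3 or WT replicate 1 or 4 (limma adjusted p from 0.062 to 0.0733). The mean of both probe sets fell by 0.22 ± 0.05 (SE; limma adjusted p = 0.0217), and without any 1 of the same 5 arrays its adjusted p was between 0.0509 and 0.069.

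The upstream windows of the enzymes are shown because these transcripts were lower in Hyp, that of Vkorc1l1 at 1 probe set only. The same bases and motifs were used as for Gas6.
Ggcx promoter, GRCm38.p6, chr6:72414058-72414257, plus strand: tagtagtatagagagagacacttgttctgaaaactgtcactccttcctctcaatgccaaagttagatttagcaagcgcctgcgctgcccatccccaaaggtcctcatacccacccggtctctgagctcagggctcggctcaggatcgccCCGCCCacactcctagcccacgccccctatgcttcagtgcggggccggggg
Vkorc1 promoter, GRCm38.p6, chr7:127895668-127895867, minus strand: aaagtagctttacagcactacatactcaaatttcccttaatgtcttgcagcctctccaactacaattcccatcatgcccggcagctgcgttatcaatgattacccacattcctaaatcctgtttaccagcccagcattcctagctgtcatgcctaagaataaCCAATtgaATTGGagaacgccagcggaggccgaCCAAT
Vkorc1l1 promoter, GRCm38.p6, chr5:129941859-129942058, plus strand: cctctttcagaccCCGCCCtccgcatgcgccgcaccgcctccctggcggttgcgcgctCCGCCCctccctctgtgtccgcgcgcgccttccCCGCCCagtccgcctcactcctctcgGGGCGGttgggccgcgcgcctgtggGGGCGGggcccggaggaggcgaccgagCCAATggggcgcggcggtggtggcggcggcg
The windows differed in make-up. That of Ggcx held 1 GC box and no CCAAT box, that of Vkorc1 3 CCAAT boxes and no GC box, and that of Vkorc1l1 5 GC boxes and 1 CCAAT box. Their GC content was 58.5%, 45.5% and 79.0%, against a median of 51.5% over all 32851 windows. Of all windows 24.6% held a GC box, 28.4% a CCAAT box and 9.14% a TATA box. The windows of Gas6, which was higher, and of Pros1, which did not pass the test, each held 1 GC box and no CCAAT box, like that of Ggcx. The windows of Pros1, Gas6 and these enzymes held no TATA box. All windows end 51 bases before the start, so a TATA box nearer to the start could not be found. These windows therefore cannot tell whether the promoters lack one. A match is a description of the letters and not of a bound site. The windows are those of RefSeq starts, which 5 of the 6 genes matched.

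**Figure D2:**
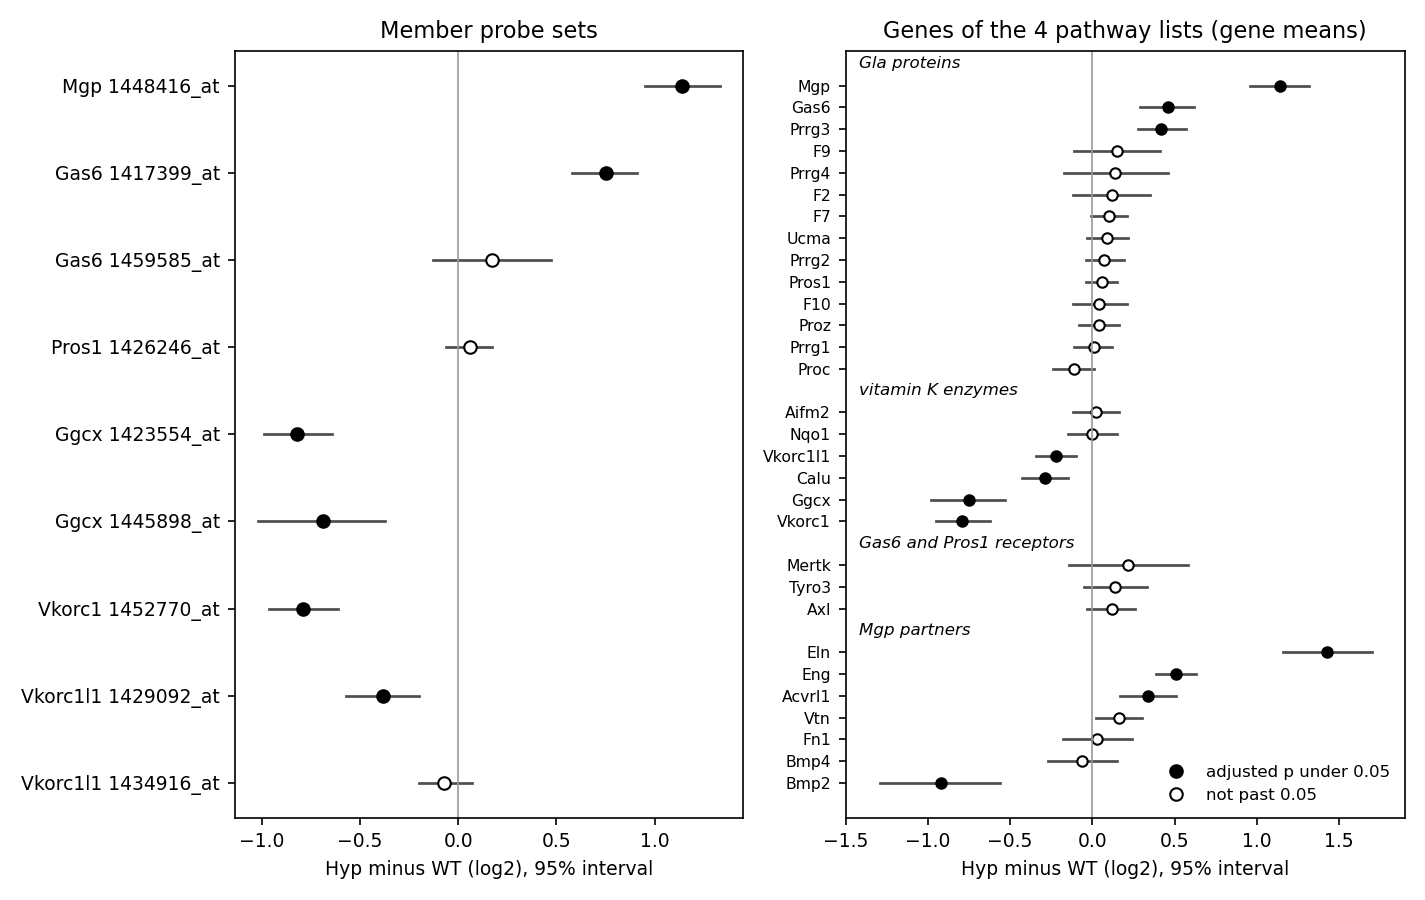
Hyp minus WT differences on the log2 scale with 95% intervals from limma, for the 9 probe sets (left) and for the gene means of 4 pathway lists (right), with filled points past an adjusted p of 0.05. Mgp lies at 1.14 and Gas6 at 0.75 and 0.17, Ggcx, Vkorc1 and the first Vkorc1l1 probe set lie between -0.82 and -0.38, and the 3 receptors lie between 0.12 and 0.22 without passing.

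Pairs of these genes were also compared within an array, which asks whether 1 gene differed between genotypes by another amount than the other. Mgp minus Ggcx, on gene means, was 0.99 ± 0.27 (SD, n = 4) in Hyp and -0.90 ± 0.09 in WT, a difference of 1.89 ± 0.14 (SE). Mgp minus Vkorc1 was 1.03 ± 0.04 (SD, n = 4) in Hyp and -0.89 ± 0.18 in WT, a difference of 1.92 ± 0.09 (SE). The Hyp arrays lay within 0.98 to 1.07 for this pair. Mgp minus Vkorc1l1 was 0.71 ± 0.13 (SD, n = 4) in Hyp and -0.65 ± 0.15 in WT, a difference of 1.36 ± 0.10 (SE). Gas6 minus Pros1 was 0.17 ± 0.18 (SD, n = 4) in Hyp and -0.23 ± 0.07 in WT, a difference of 0.40 ± 0.10 (SE). In all 4 pairs every Hyp array lay above every WT array. Each exact permutation p was 0.029 (two-sided, and 0.029 adjusted over the 4 pairs), the smallest that 4 against 4 arrays can give. For Mgp with Ggcx, Vkorc1 or Vkorc1l1 this outcome was fixed by the gene means. Mgp alone was higher in every Hyp array than in any WT array, and each enzyme lower. Those p-values therefore add nothing to the tests of the single genes. These differences show unequal change of the values of the 2 genes of a pair. For Gas6 minus Pros1 they do not show unequal change of the transcripts, since weak hybridisation of Pros1 cannot be told from a stable transcript. The centred values do not show which transcript was the more abundant.

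**Figure D3:**
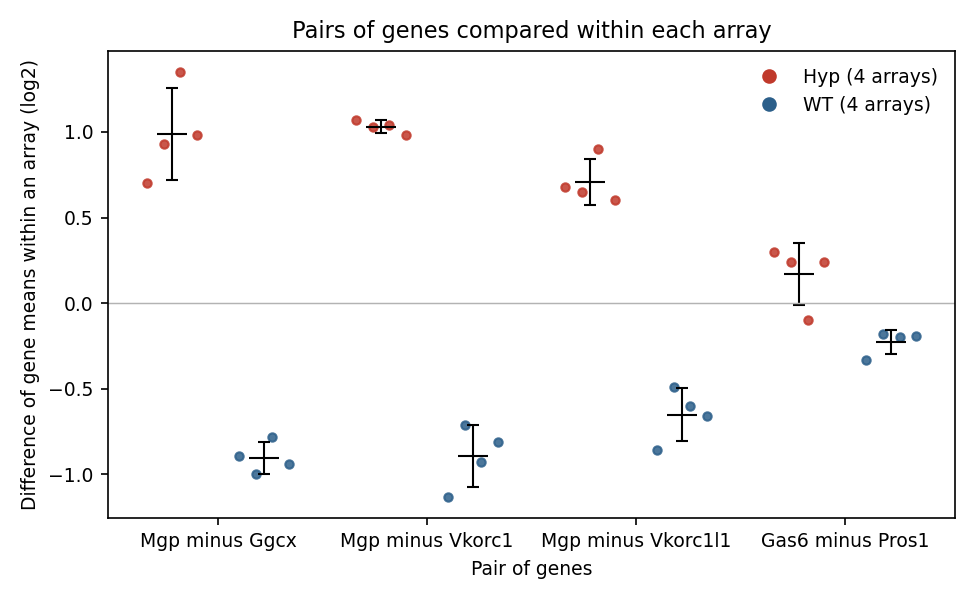
Difference of the gene means of 2 genes within each array (log2, vertical axis) for 4 pairs, with a point for each array, Hyp left of WT, and black bars for the mean and SD. For Mgp minus Vkorc1 the Hyp points run from 0.98 to 1.07 and the WT points from -1.13 to -0.71, and for Gas6 minus Pros1 the Hyp points run from -0.10 to 0.30 and the WT points from -0.33 to -0.18.

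Other genes of the pathway were read on gene means, where 12.9% of all 18193 genes passed (6.54% higher, 6.32% lower) and the median difference was 0.025. The 6 genes gave 2 higher and 3 lower on this scale, and the genotypes did not overlap for those 5, as for 19.2% of all genes. Of 14 Gla protein genes measured, 3 rose and none fell, with a median of 0.09. Beside Mgp and Gas6 the third was Prrg3, a transmembrane Gla protein, which had 0.14 ± 0.04 (SD, n = 4) in Hyp and -0.28 ± 0.12 in WT and rose by 0.42 ± 0.06 (SE; limma adjusted p = 0.0019). The coagulation factor genes F2, F7, F9 and F10, and Proc, Proz, Prrg1, Prrg2 and Prrg4, lay between -0.11 and 0.15 with adjusted p from 0.221 to 0.934. Prrg1 had probe sets on both sides of 0, of which 1431484_at was higher in Hyp (1.2-fold) and passed, while 1455724_at was lower without passing. F10 too had probe sets on both sides of 0, with 1418993_s_at at 0.29, where the groups did not overlap, and 1418992_at at -0.14. None of the F10 probe sets passed (limma adjusted p from 0.0594 to 0.897). Ucma, the Gla-rich protein of cartilage, lay at 0.09 ± 0.06 (SE; limma adjusted p = 0.32). The other 3 genes of the list were not analysed here.

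Of 6 vitamin K enzymes and regulators measured, 4 fell and none rose, with a median of -0.26. The fourth beside the 3 enzymes above was Calu, calumenin, an endoplasmic reticulum protein known to inhibit the carboxylase. It had -0.13 ± 0.06 (SD, n = 4) in Hyp and 0.15 ± 0.11 in WT and fell by 0.29 ± 0.06 (SE; limma adjusted p = 0.0137) on the gene mean, although neither of its 2 probe sets passed alone. Nqo1 and Aifm2, quinone reductases that can reduce vitamin K, lay at 0.00 ± 0.07 and 0.02 ± 0.06 (SE; limma adjusted p = 0.999 and 0.867). The receptors of Gas6 and Pros1 gave no call. Mertk lay at 0.22 ± 0.16, Tyro3 at 0.14 ± 0.09 and Axl at 0.12 ± 0.06 (SE; limma adjusted p from 0.279 to 0.431), and the Hyp and WT arrays overlapped for each.

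Of 7 genes for matrix and BMP pathway proteins that Mgp is known to bind or to act on, 3 rose and 1 fell, with a median of 0.16. Eln (elastin), the core of the elastic fibres that calcify in mice without Mgp, had 0.78 ± 0.25 (SD, n = 4) in Hyp and -0.65 ± 0.17 in WT and rose by 1.43 ± 0.12 (SE; limma adjusted p = 6.19e-05). Eng (endoglin) and Acvrl1, receptors of endothelial BMP signalling, rose by 0.51 ± 0.05 and 0.34 ± 0.08 (SE, limma adjusted p = 0.000186 and 0.0171). Both probe sets of Eng passed alone. For Acvrl1 probe set 1435825_at passed at 0.39 and 1451604_a_at at 0.28 did not (limma adjusted p = 0.0229 and 0.113). Bmp2, a growth factor that Mgp binds, had -0.34 ± 0.18 (SD, n = 4) in Hyp and 0.59 ± 0.38 in WT and fell by 0.92 ± 0.16 (SE; limma adjusted p = 0.00447). Bmp4, Fn1 (fibronectin) and Vtn (vitronectin) lay at -0.06, 0.03 and 0.16 and did not pass.

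The genes whose probe set followed Mgp most closely over the 8 arrays were Ccdc3, Phlda3, Ufsp1, Tspan18 and Prkg2, a cGMP-dependent kinase of the growth plate, with Pearson r from 0.99 to 0.995. This likeness mostly restates the difference between genotypes that all of them share, and it carries no test. Prkg2 was the one with the largest difference of these 5, at 1.57 ± 0.11 (SE; limma adjusted p = 7.54e-05). On deviations from the group means, which leave the genotype out, the nearest were Gm31087, Ccdc126, Riok1, Gh and A230009B12Rik. Their r was from 0.96 to 0.993 over the 8 arrays, and none passed the test of Hyp against WT (limma adjusted p from 0.477 to 0.98). They were picked as the highest r among all probe sets with 1 symbol, so this likeness carries no test either. On the same measure the other 8 probe sets of the 6 genes had an r with Mgp from -0.524 (Gas6 1459585_at) to 0.423 (Vkorc1), and the 2 Ggcx probe sets differed in sign (-0.287 and 0.311).

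The differences of Phex were -8.31 ± 0.21 and -5.03 ± 0.20 (SE) at its 2 probe sets, with every Hyp array below every WT array, so no array went against its label. Their position against the deleted part is not known here. The tissue label was read from marker lists on gene means, which the centring allows only as differences. Of 6 osteoblast markers measured 4 fell and 1 rose (median -0.34), with list means from -0.27 to -0.06 in Hyp and from 0.12 to 0.27 in WT. Those with the smallest p were Ifitm5, Sp7, Col1a2 and Alpl, which fell by 1.22, 0.71, 0.47 and 0.21. The 1 that rose, named after its values were seen, was Col1a1 at 0.47 on the gene mean, and its 2 probe sets lay at 1.08 and -0.14. Markers of chondrocytes and of vascular smooth muscle cells, named above as makers of Mgp, follow. Which of the other cell types listed here made Mgp was not examined. Of 12 chondrocyte markers 5 rose (median 0.37). By smallest p these were Col2a1, Hapln1, Acan and Matn3 at 0.78, 0.62, 0.59 and 0.41. The fifth, Comp, had the largest difference at 1.04 (named after its values were seen). The Hyp and WT arrays overlapped for each of these but Col2a1. The other 7 did not pass and lay between -0.08 (Epyc) and 0.57 (Col9a1), both named after their values were seen. List means ran from -0.01 to 0.37 in Hyp and from -0.36 to 0.03 in WT. Of 8 vascular smooth muscle and pericyte markers 4 rose (median 0.42), namely Pdgfrb, Mcam, Myh11 and Rgs5 at 0.58, 0.52, 0.42 and 0.68, with list means from 0.15 to 0.22 in Hyp and from -0.31 to -0.12 in WT. Acta2 and Tagln, contractile genes of these cells chosen after their values were seen, lay at 0.13 and 0.42 without passing.

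Other cell types moved too. All 8 endothelial markers rose (median 0.41, with the smallest p for Plvap, Esam, Tie1 and Pecam1), with list means from 0.11 to 0.26 in Hyp and from -0.34 to -0.17 in WT. Of 9 macrophage markers, cells that express Gas6 receptors, 8 rose (median 0.81, with the smallest p for Adgre1, C1qa, Mrc1 and C1qc), with list means from 0.21 to 0.42 in Hyp and from -0.45 to -0.30 in WT. Of 9 fibroblast and tendon markers Pdgfra and Dcn fell and Thy1 rose (median -0.25), while Col14a1 lay at -0.25 without passing, with list means from -0.21 to -0.03 in Hyp and from -0.02 to 0.32 in WT. No skeletal muscle marker of 8 passed, with list means from -1.53 to 0.15 in Hyp and from -0.68 to 2.16 in WT, the extremes being Hyp replicate 2 and WT replicate 3. With the muscle list mean as a covariate the same count of 2 higher and 4 lower probe sets was found for the 6 genes. Leaving out WT replicate 3 gave this count too. Without Hyp replicate 2 the count was 2 higher and 2 lower. The count was also 2 higher and 2 lower without Hyp replicate 3 and without WT replicate 4. None of 5 liver markers passed (median 0.03). What part the makeup of cell types, muscle included, had in the differences of Mgp, Gas6 and the enzymes was not tested.

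**Figure D4:**
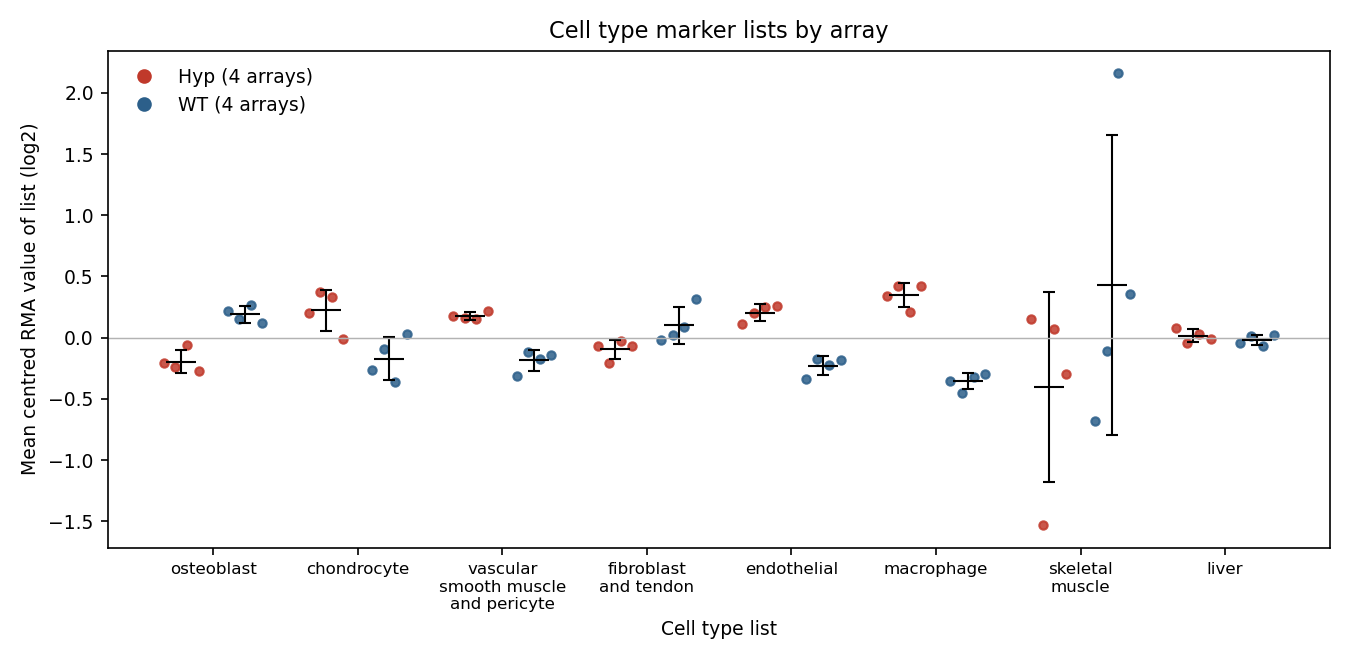
Mean centred RMA value (log2, vertical axis) of 8 cell type marker lists in each array, Hyp left of WT, with black bars for the mean and SD over 4 arrays. The macrophage list lies between 0.21 and 0.42 in Hyp and between -0.45 and -0.30 in WT, and the skeletal muscle list spreads from -1.53 to 0.15 in Hyp and from -0.68 to 2.16 in WT.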

How the data were processed

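The authors deposited a table of 8 arrays with a value for each probe set. Per the submitters' processing notes these were made with RMA (version not given in the sources used here), whose values are on the log2 scale. The deposited log2 values had a median of 0 over the 8 arrays for every probe set (within 5e-07), a centring that no label records, so levels and detection cannot be read; the log base is taken as 2 because RMA gives it. Array medians lay between -0.0082 and 0.0082, and on the second principal component (22.6% of the variance) WT replicate 3 lay at -38.4 and the others from -10.3 to 17.5. The 3′ minus 5′ control probe sets of Actb lay from -0.04 to 0.05 in Hyp and from -0.03 to 0.08 in WT, and those of Gapdh from -0.06 to 0.19 in Hyp and from -0.09 to 0.15 in WT. The number of arrays limits the precision (median SE 0.081).

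Of 45101 probe sets 64 controls were left out. The platform annotation gave 1 symbol to 34945 of the 45037 tested, several to 932 and none here to 9160, and of those with 1 symbol 34741 probe sets matched RefSeq GRCm38.p6 by gene identifier, through which symbols were updated. The test of Hyp against WT used limma 3.58.1 under R 4.3.3 (lmFit, eBayes, two-sided, Benjamini-Hochberg over all probe sets, threshold 0.05), and again on means of all probe sets with 1 symbol per gene (18193 genes). The code was checked on simulated data. The 6 genes and all lists were chosen with earlier results of these data known. Named were all 6 genes, genes of the 4 pathway lists, up to 4 genes of smallest p per cell type list, and the 5 genes most like Mgp by each measure. Pairs of genes were compared by exact permutation of the arrays. Alternatives were normalization, array weights, robust estimation of the prior, dropping probe sets of low SD, probe set choice, the muscle list as covariate, the replicate number as a block and leaving out single arrays. A filter on dim probes and a scan batch could not be run on these values.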

Additional observations from a re-analysis of the deposited data

Results flagged for a closer look

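In 8 of 144 groups of 4 arrays checked, a single array lay far from the other 3, and chance gives this in about 1 of 20 groups. No group of the 9 probe sets of Mgp, Gas6, Pros1, Ggcx, Vkorc1 and Vkorc1l1 passed the limit, although the second Ggcx probe set came just under it in Hyp, with -0.03 in Hyp replicate 1 against -0.51 to -0.43. On the mean of both Gas6 probe sets, Hyp replicate 3 lay at -0.03, against 0.27 to 0.30 in the other Hyp arrays, and WT replicate 1 at -0.33, against -0.23 to -0.22 in the other WT arrays. The pair Gas6 minus Pros1 uses these values and showed the same arrays, with -0.10 in Hyp replicate 3 against 0.24 to 0.30 and -0.33 in WT replicate 1 against -0.20 to -0.18. Without Hyp replicate 3 the Gas6 gene mean differed by 0.54 and the pair by 0.49. Prrg2 lay at -0.08 in Hyp replicate 1, against 0.03 to 0.05 in the other Hyp arrays. Col2a1, the cartilage collagen, lay at 0.05 in Hyp replicate 4, against 0.64 to 0.74. Plvap, an endothelial gene, lay at 0.19 in Hyp replicate 1, against 0.33 to 0.35. Atp2a1, the calcium pump of fast muscle, lay at -1.21 in Hyp replicate 2, against -0.07 to 0.05.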

How the results depend on the processing

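The differences of Mgp, the first Gas6 probe set, the first Ggcx probe set and Vkorc1 kept their direction and stayed past the threshold under all 17 alternatives: Mgp lay between 1.07 and 1.26, this Gas6 probe set between 0.70 and 0.80, this Ggcx probe set between -0.86 and -0.75 and Vkorc1 between -0.85 and -0.72. Of the 9 probe sets 6 passed under every setting with all arrays, between 4 and 6 without a single array, and 5 without both Hyp replicate 2 and WT replicate 3, a setting chosen after the data were seen. The second Ggcx probe set and the first of Vkorc1l1 each lost the call in 5 of 17 alternatives. With the probe set of the largest SD in place of the gene mean, Gas6 lay at 0.75 and Vkorc1l1 at -0.38, against 0.46 and -0.22. Over all probe sets 3212 were called, and 2038 with only probe sets without a shared-probe suffix, where fewer were tested. Between 1680 and 4100 were called without a single array (1680 without WT replicate 1, 4100 without WT replicate 3). Array weights gave the largest count, 4337, of which 50.9% were higher in Hyp, against 45.2% of the 3212. Of genes 2340 were called, and between 1410 and 2590 without a single array. The within-array pairs Mgp minus Ggcx, Mgp minus Vkorc1, Mgp minus Vkorc1l1 and Gas6 minus Pros1 lay between 1.77 and 1.99, 1.84 and 1.99, 1.29 and 1.42, and 0.36 and 0.49 without a single array, where no exact p under 0.0571 is possible. Paired by replicate number they lay at 1.89, 1.92, 1.36 and 0.40 with an exact p of 0.125, the smallest that 4 pairs allow, so neither setting can show a call. Deviations from the group means of same-numbered arrays correlated at 0.145, -0.044, 0.262 and 0.179, and 5 of 8 arrays correlated best with their own number. This is at most a hint that same-numbered arrays share something, since the 8 choices rest on the same correlations and were not tested. The likeness is absent in 1 pair and the labels give no pairing, so the fit without the block was kept. The fit with the replicate number as a block called 2990 probe sets and 6 of the 9.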
